A study of Homo sapiens with 12 samples.

Results

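The genes described here are the 44 protein-coding human genes whose symbols have the form COL, a number, A and a number, each encoding a chain of a collagen. They were picked by symbol and Ensembl identifier from the 58174 gene rows of each of 2 mRNA-seq tables, by a rule that uses no measured value. The cells were U87 and U118, both long-established lines from human glioblastoma. The cells had been sorted to lack the stem cell markers CD133 and CD15 and were grown with serum and BMP2. Control cells (labelled sensitive) were compared with aggregation cells (labelled resistant), which are cell aggregates that came up in cultures kept for weeks in temozolomide (TMZ), an alkylating drug, at 50 μM. Each of the 4 groups (U87 control, U87 aggregation, U118 control, U118 aggregation) had 3 libraries, 12 in all. The labels do not say whether the 3 libraries of a group came from separate cultures, so p-values measure only the spread between these libraries, which may be technical.

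Collagens are secreted or membrane proteins in which 3 chains wind into a triple helix, and most are the scaffold of the extracellular matrix. Fibrillar collagens such as types I, III and V assemble into the cable-like fibres of connective tissue, type IV forms the sheet of basement membranes, type VI forms beaded filaments around cells, and FACITs are collagens that bind to the surface of fibrils. Normal brain tissue holds little fibrillar collagen, which lies mainly around vessels and in the meninges. By class, the 44 genes comprised 11 fibrillar, 6 basement membrane network, 3 short-chain network, 5 beaded filament, 1 anchoring fibril, 10 FACIT, 4 transmembrane and 2 multiplexin genes, with 2 others.

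Type IV chain genes lie head to head in pairs, a layout in which a short stretch of DNA stands before the starts of both genes. These stretches are printed because the 2 genes of each pair had different levels and changes in these cells. In RefSeq's GRCh38.p14 annotation, the starts of COL4A1 (minus strand) and COL4A2 (plus strand) on chromosome 13 are 127 bases apart, and those of COL4A6 (minus strand) and COL4A5 (plus strand) on chromosome X are 380 bases apart. For COL4A6, 2 promoter windows are listed, and the start nearest COL4A5 was used here. Below are the whole stretch between the COL4A1 and COL4A2 starts, chr13:110307158-110307283, and the 250 bases before the COL4A5 start, chrX:108439588-108439837. Both are given on the plus strand from 5′ to 3′, and capitals mark CCAAT or GGGCGG on either strand.
COL4A1 to COL4A2: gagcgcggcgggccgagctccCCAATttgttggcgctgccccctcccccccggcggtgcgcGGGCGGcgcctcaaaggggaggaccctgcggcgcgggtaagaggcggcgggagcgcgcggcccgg
before COL4A5: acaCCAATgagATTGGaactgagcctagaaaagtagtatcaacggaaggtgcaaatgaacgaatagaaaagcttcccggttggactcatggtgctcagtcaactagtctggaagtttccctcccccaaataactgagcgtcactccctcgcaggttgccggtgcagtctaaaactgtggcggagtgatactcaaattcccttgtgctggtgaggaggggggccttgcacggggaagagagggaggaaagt
The first stretch holds 1 CCAAT and 1 GGGCGG, the letters known as a CCAAT box and a GC box. The second holds 2 CCAAT motifs on opposite strands and no GGGCGG. Neither holds TATAAA, the core of a TATA box, or ACGTG, the core of a hypoxia response element, on either strand. Promoter windows of 300 bases were found for 32 of the 44 genes, as 44 windows. CCAAT or its complement was in 31.8% of these and in 34.6% of all 35116 windows, and GGGCGG in 54.5% and 45%. TATAAA was in 18.2% and 11.5%, and ACGTG in 15.9% and 21.4%. A match is only a match of letters and shows no binding.

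The values are TPM, a transcript's share of the mRNA in its library after division by length, so levels of different genes can be set side by side. The depth behind each value is unknown, because read numbers are lost in TPM. The 3 U118 aggregation libraries were nearer to the U87 libraries than to U118 control. Over 16382 genes, Spearman's rho was 0.808 to 0.839 with U118 control, 0.895 to 0.909 with U87 control and 0.907 to 0.913 with U87 aggregation, against 0.960 to 0.988 between libraries of 1 group. These correlations are across genes, which are not independent replicates, and what lies behind them was not tested. Every U118 aggregation value below rests on these libraries. The identity of the U118 libraries could not be checked here, so a U118 difference between aggregation and control is a difference between libraries with these labels. U118 aggregation replicate 1 stood apart from replicates 2 and 3. Mitochondrially encoded genes made up 13.2% of its TPM, against 29.9% and 26.1%, and 11 of the 17 collagens at 1 TPM or more in all 3 libraries (64.7%) were at least 2 times higher in it than the mean of the other two, against 22.2% of 12840 genes. The class sums and the U118 calls are given below with and without it. The mitochondrial share was 12.9% to 16.9% in U87 control, 22.2% to 23.7% in U87 aggregation and 7.42% to 19.7% in U118 control.

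Collagen mRNA in these cells was mostly that of types VI and I. The most abundant chain was COL6A2 in U87 control (415 ± 25.4 TPM, SD, n = 3), U118 control (617 ± 89.3) and U118 aggregation (241 ± 10.2), and COL6A1 in U87 aggregation (991 ± 24.5). Means of at least 10 TPM were reached by 11 collagen genes in U87 control, 9 in U87 aggregation, 13 in U118 control and 10 in U118 aggregation. At the other end, 25 of the 44 genes were too low to be tested in either line. Of these, 21 were under 1 TPM in all 12 libraries, and the highest value of any was 3.77 TPM, for COL9A2, a FACIT chain of cartilage, in U118 aggregation replicate 1. COL2A1, the main collagen of cartilage, was listed at 0 in 11 libraries and COL9A1 in all 12. None of 13 housekeeping genes looked at was listed at 0 in any library.

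**Figure D1:**
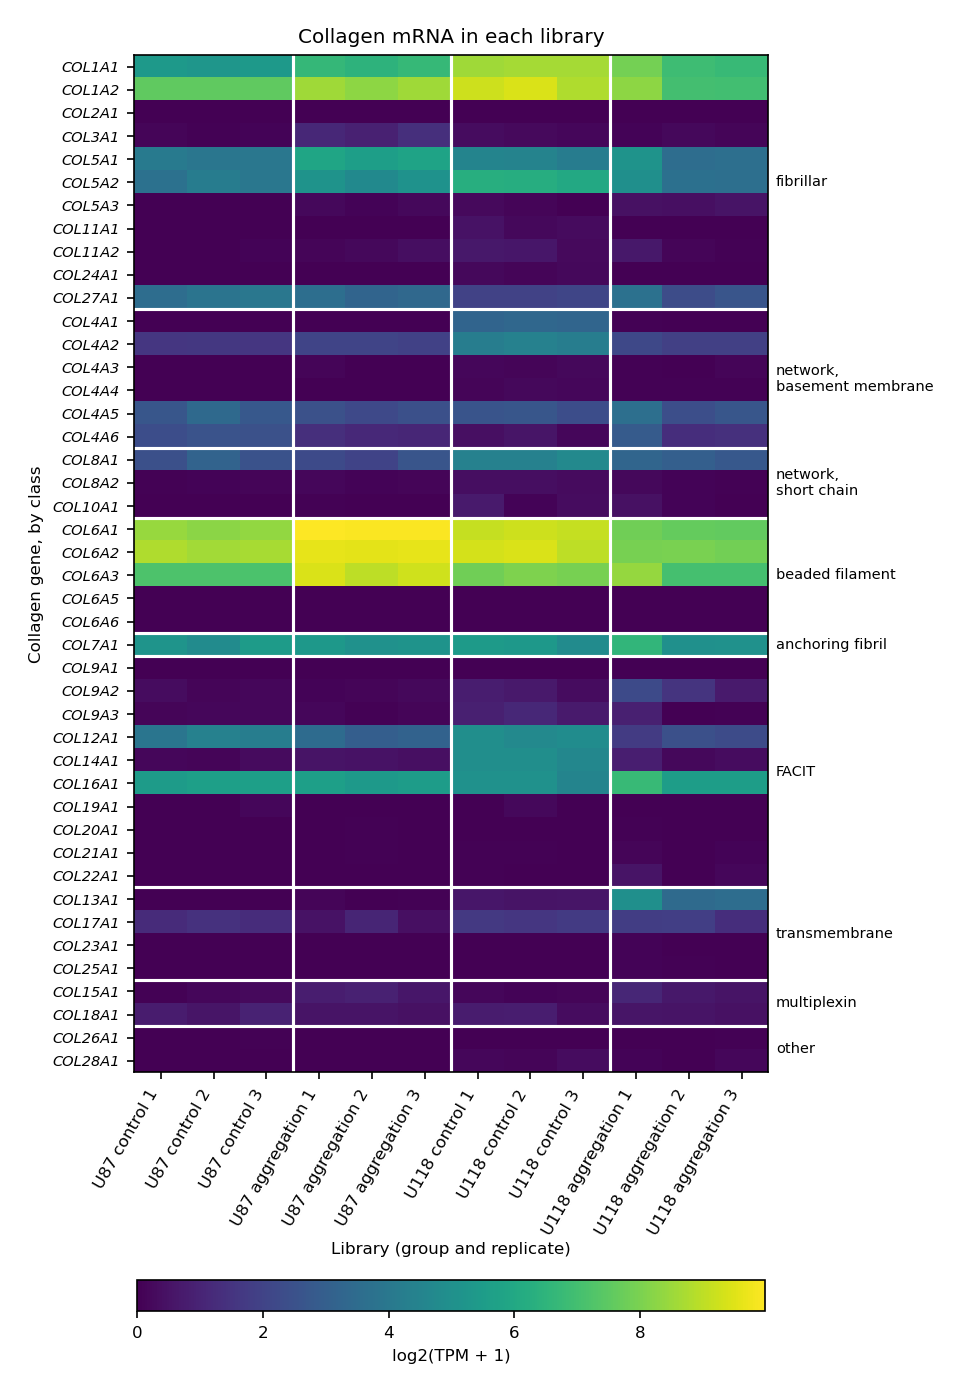
Heat map of log2(TPM + 1) for the 44 collagen genes (rows, by class) in the 12 libraries (columns, by group and replicate). COL1A1, COL1A2 and COL6A1 to COL6A3 are bright in all libraries, most rows are dark, and COL4A1 and COL14A1 stand out in U118 control and COL13A1 in U118 aggregation.

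Summed over the 44 genes, collagen mRNA was higher in aggregation than in control cells of U87 and lower in U118. The sum was 1316, 1228 and 1291 TPM in the U87 control libraries and 3203, 2812 and 3074 TPM in U87 aggregation, a ratio of means of 2.37. In U118 it was 2704, 2922 and 2394 TPM in control and 1712, 965 and 921 TPM in aggregation, a ratio of 0.449. The groups of neither line overlapped, and the exact two-sided permutation test gave p = 0.1 in both, the smallest p that 3 against 3 libraries allow. Without U118 aggregation replicate 1 the U118 ratio was 0.353. With median-ratio scaling the ratios were 2.83 and 0.638. As a share of collagen TPM, beaded filament genes held 69.4% ± 1.48 (SD, n = 3) in U87 control and 78.5% ± 0.775 in U87 aggregation, and 53.4% ± 0.993 and 55.7% ± 7.30 in U118.

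By class, fibrillar mRNA went from 269 ± 2.43 to 550.3 ± 54.9 TPM (SD, n = 3) in U87 and from 1066 ± 129 to 386 ± 209.7 TPM in U118. Beaded filament mRNA went from 887 ± 48.9 to 2376 ± 137 TPM in U87 and from 1427 ± 124 to 647 ± 142 TPM in U118. These 2 classes moved in opposite directions in the lines, with no overlap between the groups of a line (exact permutation test, two-sided, p = 0.1 in each of the 4 cases). Basement membrane chains had lower sums after aggregation in each line, without overlap, at 13.6 ± 2.79 and 8.56 ± 0.739 TPM in U87 and 32.7 ± 2.31 and 13.3 ± 7.12 TPM in U118 (exact permutation p = 0.1 each). The chains behind these sums differed between the lines. In U87 the means of COL4A5 and COL4A6 fell and that of COL4A2 rose. In U118 the means of COL4A1 and COL4A2 fell and those of COL4A5 and COL4A6 rose. The transmembrane class was also without overlap, at 1.51 ± 0.194 and 0.627 ± 0.35 TPM in U87 but 2.62 ± 0.11 and 19.3 ± 11.8 TPM in U118 (exact permutation p = 0.1 each). FACIT and anchoring fibril sums overlapped between the groups of both lines. Without U118 aggregation replicate 1 the U118 ratio of means went from 0.362 to 0.249 for fibrillar, 0.453 to 0.396 for beaded filament, 0.406 to 0.280 for basement membrane, 0.849 to 0.609 for FACIT, 1.46 to 0.871 for anchoring fibril and 7.39 to 4.79 for transmembrane collagens.

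**Figure D2:**
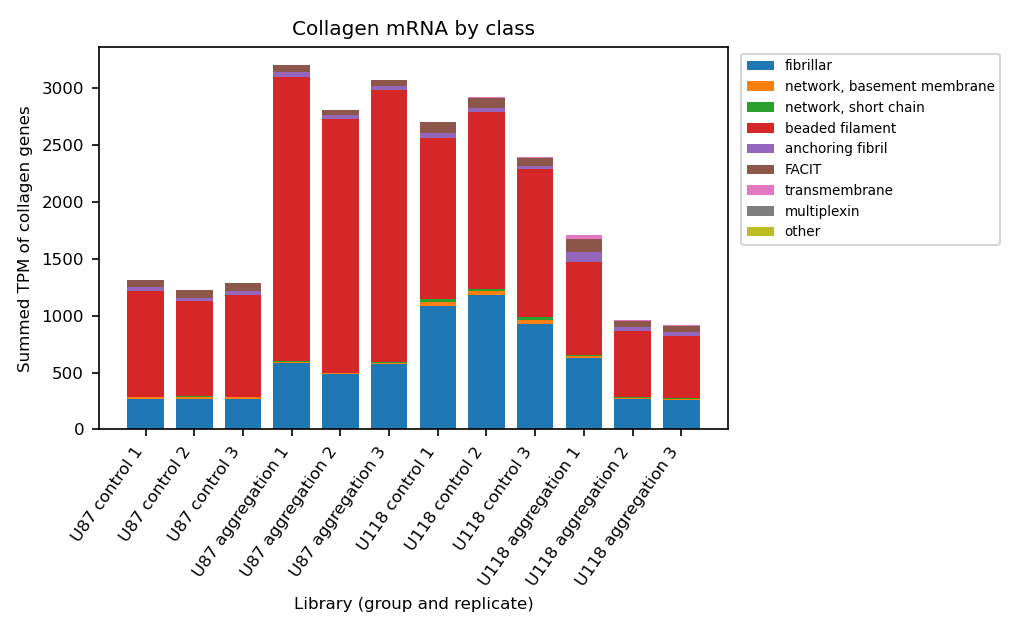
Stacked bars of the summed TPM of collagen genes in each library, coloured by collagen class, from 0. The U87 aggregation bars (3203, 2812 and 3074 TPM) lie above the U87 control bars (1316, 1228 and 1291 TPM), while U118 aggregation bars lie below all 3 U118 control bars, with replicate 1 the highest of them.

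Single genes were compared with limma on log2(TPM + 1) over all genes at 1 TPM or more in at least 3 libraries. A gene was called at an adjusted p under 0.05 (Benjamini-Hochberg over all genes tested) with a log2 fold change that reached 1 or -1. Fold changes on this scale understate the change of low genes. In U87, 16 collagens could be tested, of which 5 were called higher in aggregation cells and 1 lower, and of all 13845 genes tested, 3.03% were called higher and 7.79% lower. In U118, 19 could be tested, of which 3 were called higher and 10 lower, against 8.64% and 26.6% of 15527 genes. The median log2 fold change of the tested collagens was 0.21 in U87 and -1.34 in U118, beside -0.24 and -0.52 over all genes tested.

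The median of all genes lay below 0 in both lines, so the scale matters for these counts. With median-ratio scaling, which divides each library by the median of its gene-wise ratios to the geometric mean over libraries, U87 had 8 collagens called higher and 1 lower of 17 tested (all genes, 4.79% and 3.92%), the added gene being COL3A1. It passed the filter only through U87 aggregation, so its call rests on that group. U118 then had 4 called higher and 6 lower (15.2% and 12.9%). Some collagens could be tested only because 1 group was high. Over the 15 collagens at 1 TPM or more in all 6 libraries of a line, U87 had 5 called higher and 1 lower, against 2.03% and 7.29% of 12102 such genes. U118 had 1 called higher and 8 lower, against 5.47% and 23.3% of 11898. In U87 the groups did not overlap for 12 of the 16 collagens, 8 higher and 4 lower, against 53.4% of all genes tested (13.6% higher, 39.8% lower). In U118 they did not overlap for 14 of the 19, 4 higher and 10 lower, against 58.6% (15.7% higher, 42.9% lower). Collagen transcripts are long, with a median of 6494 bases for the tested collagens against 3026 for all tested genes with a length, and the all-gene median log2 fold change in U118 went from -0.31 for transcripts under 2000 bases to -0.79 for those of 6000 or more. With the trend in length and GC content removed from each library, an alternative chosen after the data were seen, U87 had 7 collagens called higher and 1 lower, and U118 had 4 higher and 8 lower. The share of all genes called was not computed with this trend removed, so these counts cannot be set against it. A lower level in these bulk samples can mean fewer cells that make an mRNA or less mRNA in each cell, which cannot be told apart.

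**Figure D3:**
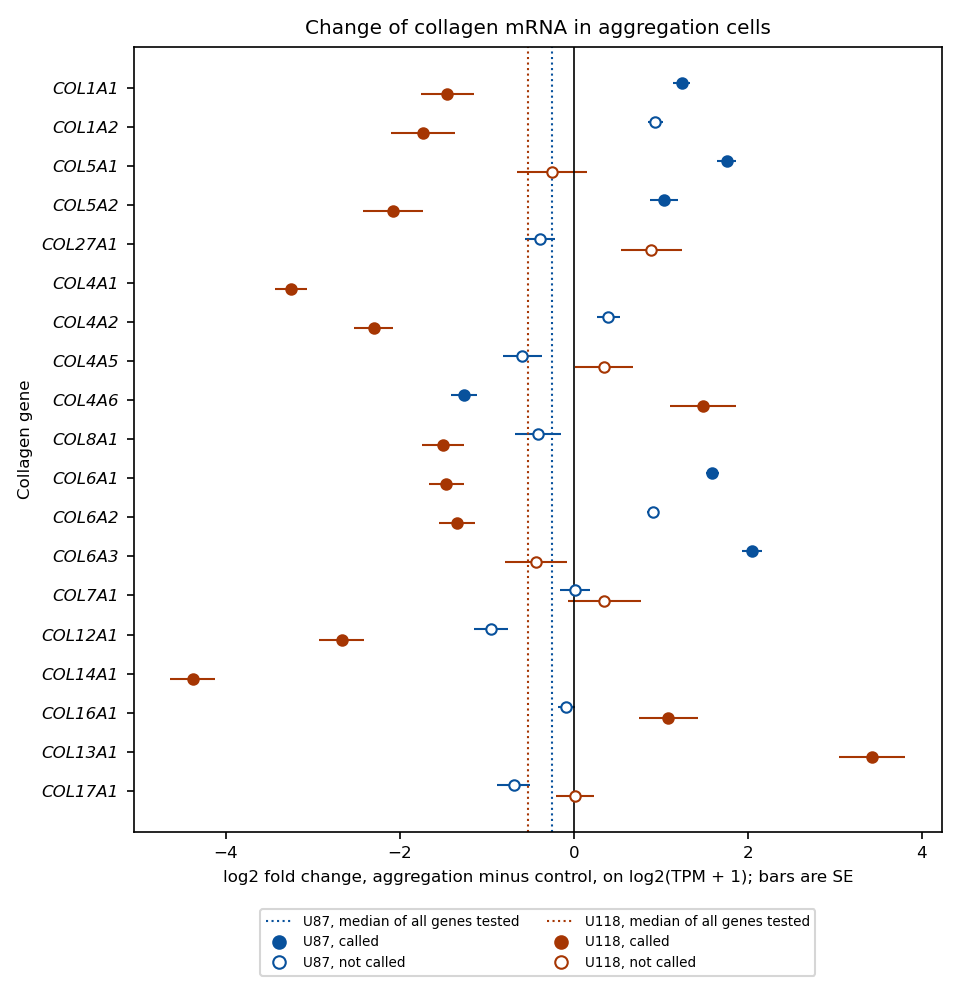
Log2 fold change of aggregation against control on log2(TPM + 1), with SE bars, for the tested collagens in U87 (blue) and U118 (brown); filled points are called, and dotted lines are the medians of all genes tested, -0.24 and -0.52. Types I, V and VI lie to the right in U87 and at or left of 0 in U118, and COL4A6 lies the other way round.

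Type I collagen, the main fibrous collagen of skin, bone and tendon, has 2 chains. COL1A1 (chr17:50183289-50201632, GRCh38) was at 41.8, 37.3 and 41.3 TPM in U87 control and 100.4, 86.8 and 102 TPM in U87 aggregation, so every aggregation library was above every control library (log2 fold change 1.24 ± 0.096 SE, adjusted p = 0.000189). In U118 it was at 380.5, 403 and 396 TPM in control and 237, 117.6 and 105 TPM in aggregation, where every library was lower (log2 fold change -1.45 ± 0.30 SE, adjusted p = 0.00408). COL1A1 thus rose in U87 and fell in U118, although each U118 aggregation library was still above every U87 aggregation library. COL1A2 (chr7:94394561-94431232), the partner chain, was at 188, 185 and 187 TPM in U87 control and 382, 317 and 377 TPM in U87 aggregation, without overlap but under the fold threshold (log2 fold change 0.94 ± 0.085 SE, adjusted p = 0.000335). In U118 COL1A2 fell from 607, 679 and 446 TPM to 313, 126 and 124 TPM (log2 fold change -1.73 ± 0.37 SE, adjusted p = 0.0042). With median-ratio scaling COL1A2 was called in U87 (log2 fold change 1.20, adjusted p = 0.000191), while COL1A1 was under the fold threshold in U118 (-0.89). When the trend of each library with transcript length and GC content was removed, COL1A2 was at -0.86 in U118, under the threshold too.

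Type V collagen forms the core of type I fibrils and limits their width. COL5A1 (chr9:134641774-134844843) was at 16.1, 14.2 and 14.5 TPM in U87 control and rose to 57, 47.6 and 54.5 TPM in U87 aggregation (log2 fold change 1.76 ± 0.11 SE, adjusted p = 0.000107). In U118 control it was at 21.5, 20.9 and 17.2 TPM and in U118 aggregation at 34.4, 11 and 11.5 TPM, with replicate 1 above and replicates 2 and 3 below all controls (log2 fold change -0.25 ± 0.40 SE, adjusted p = 0.618). COL5A1 was thus raised in U87 and not called in U118, where the aggregation libraries disagreed in direction. COL5A2 (chr2:189031896-189225312) was at 12.4, 17.2 and 14.6 TPM in U87 control and 34.1, 26.1 and 33.2 TPM in U87 aggregation (log2 fold change 1.03 ± 0.16 SE, adjusted p = 0.0029). Its U87 fold change was close to the threshold and went under it (0.92 to 0.98) without U87 control replicate 1 or aggregation replicate 1 or 3. In U118 it fell from 75.6, 74.2 and 64.8 TPM to 30.1, 12 and 11.6 TPM (log2 fold change -2.07 ± 0.35 SE, adjusted p = 0.0012). COL5A2 was the fibrillar chain with the largest fall in U118.

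COL27A1 (chr9:114155560-114312511), a fibrillar collagen of developing cartilage, was at 10.8, 13.4 and 14.6 TPM in U87 control and 11.3, 8.31 and 9.38 TPM in U87 aggregation, with overlap. The U118 values were 2.94, 2.91 and 3.21 TPM in control and 12.2, 4.02 and 5.23 TPM in aggregation, all 3 above control but past no threshold (log2 fold change 0.89 ± 0.35 SE, adjusted p = 0.0585). With median-ratio scaling it was called higher in U118 (1.33, adjusted p = 0.00167). COL3A1, the partner of type I in soft tissue, was under the filter in both lines as deposited. It was at 0.103, 0.0378 and 0.0724 TPM in U87 control and 1.15, 0.902 and 1.53 TPM in U87 aggregation, and at most 0.262 TPM in U118. The remaining 5 fibrillar genes (COL2A1, COL5A3, COL11A1, COL11A2 and COL24A1) stayed under 1 TPM in every library.

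**Figure D4:**
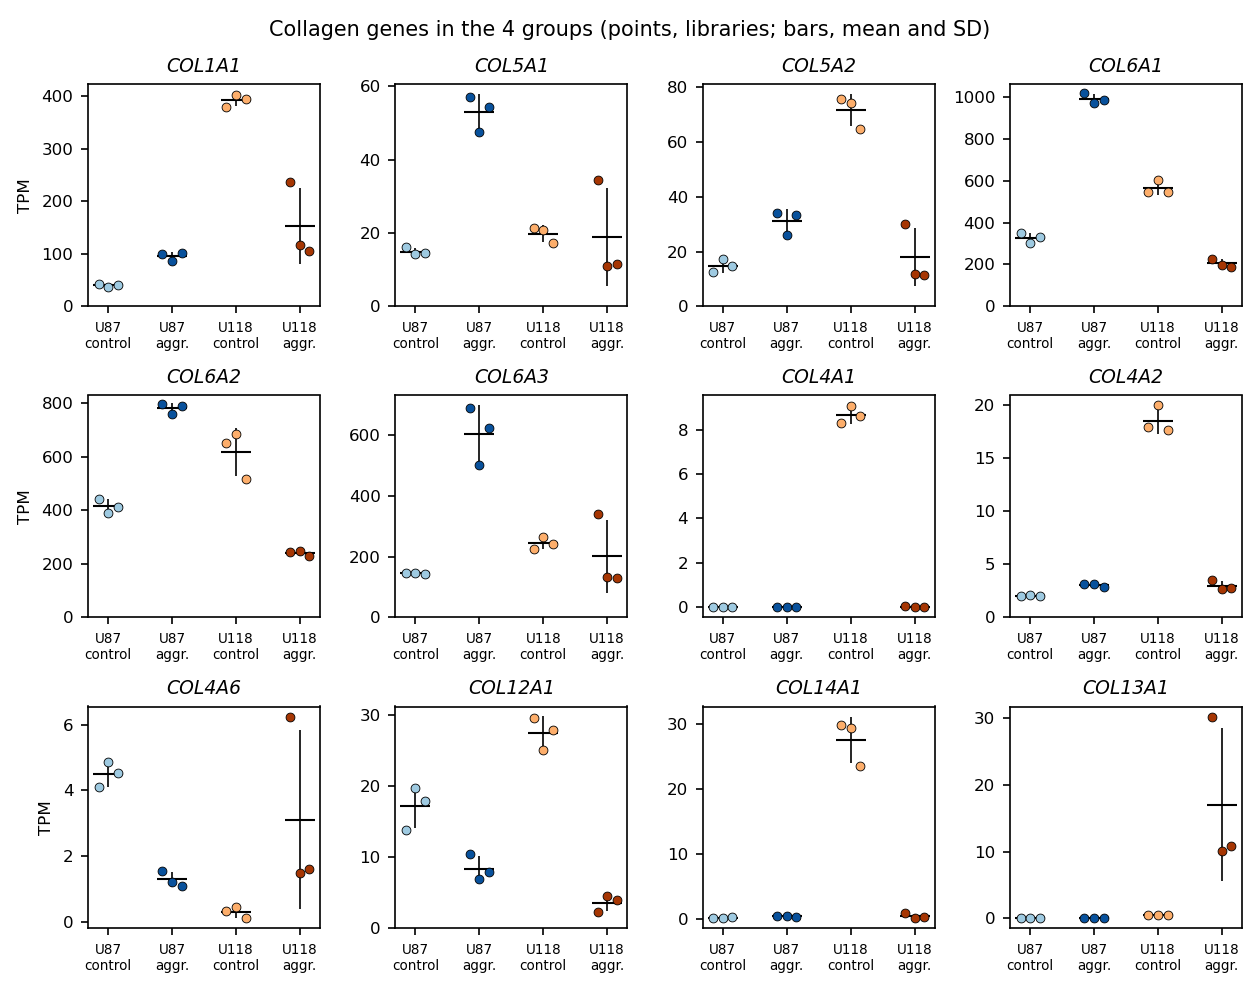
TPM of 12 collagen genes in the 4 groups, each point a library, with mean and SD; each panel has its own linear axis. COL1A1, COL5A2, COL6A1 and COL6A2 are higher in U87 aggregation and lower in U118 aggregation than in their controls, COL4A1 and COL14A1 are near 0 outside U118 control, and U118 aggregation replicate 1 (left point) is far above the other two for COL5A1, COL6A3, COL4A6 and COL13A1.

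Type IV collagen of most basement membranes is built of COL4A1 and COL4A2 chains. COL4A1 (chr13:110148963-110307233) was listed at 0 in all 6 U87 libraries. In U118 control it was at 8.31, 9.08 and 8.59 TPM, and in U118 aggregation at 0.0342, 0 and 0.0215 TPM, so it reached 1 TPM in only 1 of the 4 groups (log2 fold change -3.24 ± 0.19 SE, adjusted p = 2.05e-06). COL4A2 (chr13:110305812-110513209), on the other side of the stretch printed above, was not absent with it. It was at 2.02, 2.1 and 2.03 TPM in U87 control and 3.12, 3.14 and 2.82 TPM in U87 aggregation, without overlap but under the fold threshold (log2 fold change 0.40 ± 0.13 SE, adjusted p = 0.0453). In U118 it fell from 18, 20 and 17.7 TPM to 3.54, 2.68 and 2.76 TPM, the level of U87 aggregation (log2 fold change -2.30 ± 0.22 SE, adjusted p = 5.13e-05). The annotated spans of COL4A1 and COL4A2 overlap by 1422 bases on opposite strands in GENCODE 29, and whether the quantification used strand is not given in the sources used here, so reads from that overlap could belong to either gene. The call of COL4A1 rests on U118 control alone, since with any 1 of those libraries left out the gene no longer reached 1 TPM in 3 libraries.

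COL4A5 and COL4A6 make the type IV network of smooth muscle and some epithelial basement membranes. COL4A5 (chrX:108439844-108697545) was at 5.45, 9.79 and 5.81 TPM in U87 control and 4.62, 3.61 and 4.38 TPM in U87 aggregation, and at 5.07, 5.44 and 4.2 and 11.5, 4.27 and 5.32 TPM in the U118 groups. It was called in neither line (adjusted p = 0.0817 in U87 and 0.407 in U118). COL4A6 (chrX:108155607-108439497) fell in U87, from 4.1, 4.87 and 4.53 TPM in control to 1.55, 1.23 and 1.11 TPM in aggregation (log2 fold change -1.26 ± 0.15 SE, adjusted p = 0.000876). In U118 it rose from 0.326, 0.465 and 0.117 TPM to 6.25, 1.49 and 1.62 TPM (log2 fold change 1.48 ± 0.38 SE, adjusted p = 0.0107). COL4A6 was the 1 collagen called lower in U87 and higher in U118. The U118 call was lost without U118 control replicate 3 (log2 fold change 1.37, adjusted p = 0.0658), and COL4A6 could not be tested without any 1 of the U118 aggregation libraries, whose replicate 1 was 4.02 times the mean of the other two. COL4A3 and COL4A4, the chains of kidney glomeruli, stayed under 1 TPM in every library.

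COL8A1 (chr3:99638475-99799226), a short-chain network collagen of vessel walls and the cornea, was at 4.41, 8.08 and 4.72 TPM in U87 control and 3.73, 3.07 and 5.22 TPM in U87 aggregation, with overlap. U118 levels fell from 20.2, 20.1 and 25.3 TPM to 8.56, 7.08 and 5.7 TPM (log2 fold change -1.50 ± 0.24 SE, adjusted p = 0.000939). The fold change was just under the threshold with median-ratio scaling (-0.99) and at -0.83 with the length and GC trend removed. COL8A2 and COL10A1 stayed under 1 TPM.

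Type VI collagen forms the beaded filaments that link cells with the fibrous matrix, and its main form has 1 chain each of COL6A1, COL6A2 and COL6A3. COL6A1 (chr21:45981737-46005050) was at 349, 302 and 332 TPM in U87 control and rose to 1018, 970.3 and 984 TPM in U87 aggregation (log2 fold change 1.59 ± 0.07 SE, adjusted p = 4.38e-05). In U118 it fell from 547, 604 and 547 TPM to 227, 198 and 189.9 TPM (log2 fold change -1.46 ± 0.20 SE, adjusted p = 0.000359). The U118 aggregation libraries agreed closely here, unlike for the type I and V chains. COL6A2 (chr21:46098097-46132849), the neighbour of COL6A1 on chromosome 21, was at 441, 390.2 and 413 TPM in U87 control and 795, 757 and 788 TPM in U87 aggregation, without overlap and just under the fold threshold (log2 fold change 0.91 ± 0.065 SE, adjusted p = 0.000149). In U118 it fell from 651, 685 and 516 TPM to 244, 249 and 229.6 TPM (log2 fold change -1.34 ± 0.21 SE, adjusted p = 0.000775). With median-ratio scaling COL6A2 was called in U87 (1.17), and the U118 falls of COL6A1 (-0.90) and COL6A2 (-0.79) were under the fold threshold.

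COL6A3 (chr2:237324003-237414375) is the longest of the 3 chains. It was at 146, 145 and 144 TPM in U87 control and 689.9, 503 and 623 TPM in U87 aggregation, the largest rise of any tested collagen in U87 (log2 fold change 2.04 ± 0.11 SE, adjusted p = 7.81e-05). The U118 values were 225, 264 and 242 TPM in control and 339, 133 and 130.1 TPM in aggregation, with replicate 1 above all controls and replicates 2 and 3 below them (log2 fold change -0.43 ± 0.36 SE, adjusted p = 0.332). COL6A5 and COL6A6 were at or near 0, at most 0.0179 TPM.

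COL7A1 (chr3:48564073-48595267), which makes the anchoring fibrils that hold epidermis to dermis, was at 35.1, 27.4 and 43.2 TPM in U87 control and 39.2, 32.5 and 34 TPM in U87 aggregation. The U118 values were 42.5, 39.6 and 27.1 TPM in control and 95.7, 31 and 32.3 TPM in aggregation. The groups overlapped in both lines, and neither change was called (adjusted p = 0.94 and 0.495).

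Among the 10 FACIT genes, 3 were at 10 TPM or more in some group, and each had its own pattern. COL12A1 (chr6:75084326-75206051), found along type I fibrils of tendon and ligament, had lower levels after aggregation in each line. It was at 13.8, 19.7 and 17.9 TPM in U87 control and 10.4, 6.92 and 7.86 TPM in U87 aggregation, without overlap and just under the fold threshold (log2 fold change -0.95 ± 0.20 SE, adjusted p = 0.00867). U118 levels fell from 29.6, 25 and 27.9 TPM to 2.34, 4.49 and 3.93 TPM (log2 fold change -2.67 ± 0.26 SE, adjusted p = 4.92e-05). It was the 1 gene of the 17 compared that was lower in U118 aggregation replicate 1 than in the mean of the other two, at 0.556 times. COL14A1, a related FACIT of fibril-rich tissue, was at 29.9, 29.5 and 23.5 TPM in U118 control and fell to 0.791, 0.152 and 0.245 TPM in U118 aggregation, the largest fall of any collagen on log2(TPM + 1) (log2 fold change -4.38 ± 0.26 SE, adjusted p = 2.39e-06). In plain TPM the ratio of means was lower for COL4A1 (0.00214) than for COL14A1 (0.0143). COL14A1 reached 1 TPM only in U118 control, so its call rests on that group. It could not be tested with any 1 of those libraries left out. The other 7 FACIT genes were not tested. In U87 COL14A1 stayed under 1 TPM, at 0.132, 0.0971 and 0.214 TPM in control and 0.424, 0.417 and 0.313 TPM in aggregation.

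COL16A1 (chr1:31652247-31704319), a FACIT that has been described in glioma, was at 44.1, 48.3 and 49 TPM in U87 control and 48.5, 40.3 and 44.7 TPM in U87 aggregation, with overlap. The U118 values were 31.9, 32.1 and 21.5 TPM in control and 105, 46 and 46.2 TPM in aggregation, higher in all 3 (log2 fold change 1.09 ± 0.34 SE, adjusted p = 0.0257). Without replicate 1 of U118 aggregation the fold change was 0.70, under the threshold, and the adjusted p was above 0.05 without U118 control replicate 2 (0.0507) or 3 (0.102). With median-ratio scaling the fold change was larger, at 1.63 (adjusted p = 0.000555).

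Of the transmembrane collagens, which stay anchored in the cell membrane, COL13A1 had the largest log2 fold change upward in U118. COL13A1 (chr10:69801867-69964275), known from the neuromuscular junction and cell adhesion sites, was listed at 0 in the 3 U87 control libraries and was at 0.104, 0 and 0.0427 TPM in U87 aggregation. In U118 it went from 0.511, 0.458 and 0.484 TPM in control to 30.3, 10.1 and 10.8 TPM in aggregation (log2 fold change 3.43 ± 0.38 SE, adjusted p = 0.000114), so that even the lowest aggregation library was far above the highest control. It reached 1 TPM only in U118 aggregation, and could not be tested with any 1 of these libraries left out. COL17A1 (chr10:104031286-104085957), which ties epithelial cells to the basement membrane, was at 1.38, 1.71 and 1.42 TPM in U87 control and 0.389, 1.02 and 0.321 TPM in U87 aggregation, without overlap and under the fold threshold (log2 fold change -0.69 ± 0.19 SE, adjusted p = 0.0279). In U118 its groups overlapped at 1.46 to 2.65 TPM. COL23A1 and COL25A1 were under 0.1 TPM. COL15A1 and COL18A1, the multiplexins of vessel basement membranes, were at most 1.11 and 0.920 TPM, and the other 2 genes, COL26A1 and COL28A1, at most 0.253 TPM.

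The difference between the lines was tested as an interaction over all 12 libraries, U118 change minus U87 change. Of the 19 collagens tested, 16 were called, 4 with a higher and 12 with a lower change in U118, and over all 16382 genes 12% were higher and 18.5% lower. Among the called ones, COL4A1 and COL14A1 passed the filter only through U118 control, and COL13A1 only through U118 aggregation. Their calls rest on the group that let them in, and no count was made over genes at 1 TPM or more in all 12 libraries. With median-ratio scaling 5 of 20 were higher and 12 lower (15.7% and 14.6%), where COL3A1 and COL4A5 came in and COL8A1 dropped out. The call of COL3A1 rests on U87 aggregation, the only group through which it passed the filter. The 3 type VI chains differed by -3.06 (COL6A1), -2.26 (COL6A2) and -2.47 (COL6A3) on the log2 scale, with adjusted p = 4.31e-08, 1.31e-06 and 0.000479. The type I and V chains differed by -2.69 (COL1A1), -2.67 (COL1A2), -2.01 (COL5A1) and -3.11 (COL5A2). COL4A6 (2.74) and COL13A1 (3.36) differed the other way. Of the 16 collagens tested in each line, 3 were called higher in U87 and lower in U118 (COL1A1, COL5A2 and COL6A1) and 1 the reverse (COL4A6), against 0.666% and 0.991% of the 13217 genes tested in both lines.

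Without U118 aggregation replicate 1 the 12 lower calls of the interaction were again 12, and the 4 higher became 1, COL4A6 (2.24, adjusted p = 7.1e-06). COL27A1 and COL16A1 then had differences of 0.86 and 0.78, under the fold threshold, and COL13A1 could not be tested. In U118 itself the same 10 collagens were called lower, with log2 fold changes of -1.81 (COL1A1), -2.17 (COL1A2), -2.50 (COL5A2), -3.26 (COL4A1), -2.39 (COL4A2), -1.63 (COL8A1), -1.54 (COL6A1), -1.35 (COL6A2), -2.45 (COL12A1) and -4.57 (COL14A1). None of 17 collagens tested was called higher, 2 being higher at an unadjusted p under 0.05 (limma). The call of COL27A1 in the interaction was also lost without U87 control replicate 2 or 3, U87 aggregation replicate 2 or 3 or any U118 control library (adjusted p 0.0509 to 0.0729), that of COL16A1 without the same U87 libraries or U118 control replicate 3 (0.0535 to 0.0802). The call of COL8A1 was lost without U87 control replicate 1 or 3, U87 aggregation replicate 3, U118 control replicate 3 or U118 aggregation replicate 3 (0.0638 to 0.0740).

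The control cells of the lines were compared in the same fit. Cell line and table cannot be told apart in it, and it shares its control libraries with the comparisons above. U118 control was called higher than U87 control for 7 collagens and lower for 2, with 25.6% of all genes higher and 11% lower. COL4A1 and COL14A1 passed the filter only through U118 control, and COL4A6 was under 1 TPM in every U118 control library. Of the 15 collagens at 1 TPM or more in all 6 libraries 5 were higher and 1 lower, against 21.5% and 8.83% of 11848 such genes. Groups did not overlap for 18 of 19, 14 higher and 4 lower (all genes, 66.8%, with 44.3% higher and 22.5% lower). With median-ratio scaling 7 were called higher and 3 lower (15.4% and 15.8%), COL16A1 being the added one. The higher ones were COL14A1 (4.64 on the log2 scale), COL4A1 (3.27), COL1A1 (3.26), COL4A2 (2.68), COL5A2 (2.21), COL8A1 (1.80) and COL1A2 (1.60), with limma's adjusted p at most 0.000578. COL4A6 (-2.08) and COL27A1 (-1.78) were lower. Among the type IV chains the directions were thus mixed, and the type VI chains differed by less than the fold threshold (0.56 to 0.79). The COL1A2 difference was 0.82 with the length and GC trend removed.

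Between the aggregation cells, 2 collagens were called higher in U118 and 6 lower, against 8.79% and 5.59% of all genes. Of the higher ones, COL13A1 passed the filter only through U118 aggregation, and COL17A1 was under 1 TPM in U87 aggregation replicates 1 and 3. The 15 collagens at 1 TPM or more in all 6 libraries held neither higher one and all 6 lower ones. Of 11837 such genes, 7.65% were higher and 4.71% lower. With median-ratio scaling 2 were higher and 8 lower (7.54% and 7.35%), COL3A1 and COL5A2 being added. COL3A1 passed the filter only through U87 aggregation, so its call rests on that group. Groups did not overlap for 10 of 19, 4 higher and 6 lower (all genes, 44.8%, with 29.6% higher and 15.2% lower). COL13A1 (3.93 on the log2 scale) and COL17A1 (1.03) were higher. The type VI chains COL6A1 (-2.27), COL6A3 (-1.73) and COL6A2 (-1.69) were lower, as were COL5A1 (-1.62), COL1A2 (-1.07) and COL12A1 (-1.05). COL4A1, COL4A2 and COL14A1, all far apart between the control cells, differed here by 0.03 or less in size with overlapping groups. COL12A1 was under the fold threshold without U118 aggregation replicate 1 (-0.84) or U87 aggregation replicate 1 (-0.90), and COL17A1 without U118 aggregation replicate 1 or 2 or U87 aggregation replicate 1 or 3 (0.92 to 0.95). The COL1A2 call was lost without replicate 2 or 3 of U118 aggregation (-0.85 and -0.84) or replicate 1 or 3 of U87 aggregation (adjusted p = 0.0564 and 0.0547).

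Ratios of 2 chains within a library do not depend on how the library is scaled. COL6A1 over COL6A2 was 0.792, 0.775 and 0.803 in U87 control and 1.28, 1.28 and 1.25 in U87 aggregation. In U118 it was 0.84, 0.881 and 1.06 in control and 0.933, 0.796 and 0.827 in aggregation, with overlap. COL6A2 was the higher of the pair in all 3 U87 control libraries and COL6A1 in all 3 U87 aggregation libraries (exact two-sided permutation p = 0.1 in U87 and 0.5 in U118). COL6A1 over COL6A3 had lower means after aggregation in each line, at 2.263 and 1.66 in U87 and 2.33 and 1.21 in U118 (exact permutation p = 0.1 each). In U118 the log2 change of this ratio was -1.03, and -0.65 without aggregation replicate 1.

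Of the 4 chain ratios compared in U118, that of type V moved most, while in U87 the COL4A5 to COL4A6 ratio moved more (log2 change 1.11). COL5A1 over COL5A2 was 0.284, 0.281 and 0.266 in U118 control and 1.14, 0.92 and 0.994 in U118 aggregation, higher in all 3 (log2 change 1.87; 1.79 to 1.94 with any 1 library left out). In U87 it was 1.3, 0.826 and 0.989 and 1.67, 1.82 and 1.64 (log2 change 0.74). The ratio was higher in aggregation cells of both lines without overlap (exact permutation p = 0.1 each). COL1A1 over COL1A2 had means of 0.215 and 0.269 in U87, without overlap, and 0.703 and 0.844 in U118, with overlap (exact permutation p = 0.1 and 0.3). COL4A5 over COL4A6 had means of 1.54 and 3.29 in U87 (exact permutation p = 0.1), and was not computed in U118, where COL4A6 was under 1 TPM in control.

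**Figure D5:**
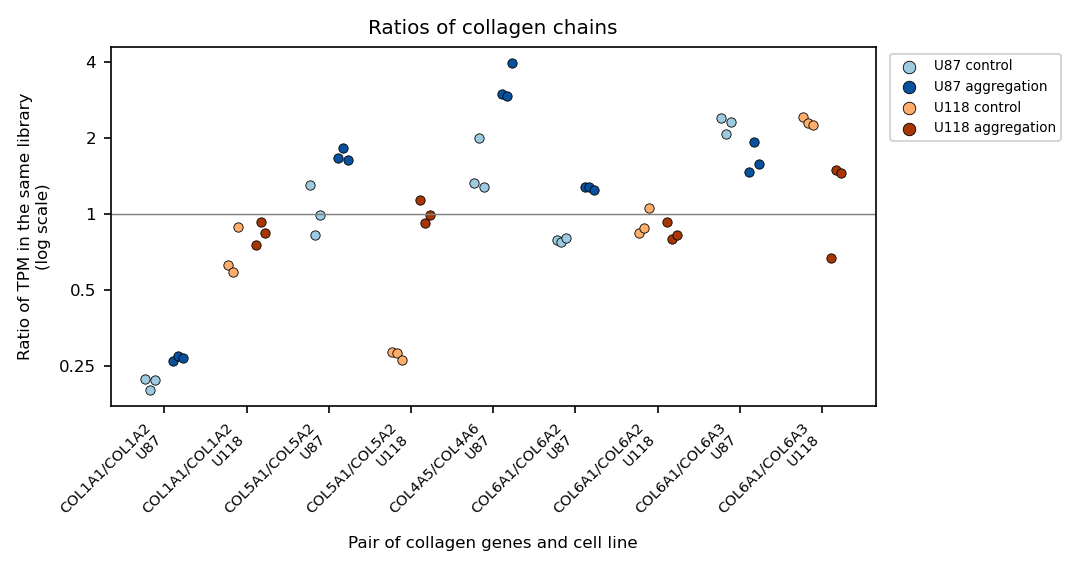
Ratios of the TPM of 2 collagen chains in the same library (log axis), each point a library, for the pairs with both chains at 1 TPM or more in all 6 libraries of a line. The mean of COL5A1/COL5A2 is 0.277 in U118 control and 1.02 in U118 aggregation, and COL6A1/COL6A2 lies below 1 in U87 control and above 1 in U87 aggregation.

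Collagen chains are folded, cut, cross-linked, bound and broken down by other proteins, and the lists of these were compared by count. The lists were chosen with earlier results of these data known, so the counts in this and the next paragraphs are descriptions and not tests of the lists. Of all genes tested, U87 had 3.03% called higher and 7.79% lower, and U118 had 8.64% higher and 26.6% lower. The 18 genes named below for U118 were all called without U118 aggregation replicate 1 too. Of enzymes and chaperones of folding, 1 of 21 tested was called higher and none lower in U87 (3 at an unadjusted p under 0.05, limma). In U118 the counts were 2 higher and 4 lower, or 9.52% and 19% beside 8.64% and 26.6% of all genes. P4HA2, a prolyl hydroxylase that stabilises the helix, was called higher in both lines, from 94.5 ± 2.61 to 206 ± 3.84 TPM (SD, n = 3; log2 fold change 1.12, adjusted p = 7.75e-05) in U87 and from 55.1 ± 10.5 to 162 ± 72.5 TPM (SD, n = 3; log2 fold change 1.47, adjusted p = 0.00412) in U118. P3H2, another prolyl hydroxylase, fell in U118 from 70.9 ± 1.63 to 7.09 ± 1.89 TPM (SD, n = 3; log2 fold change -3.18, adjusted p = 8.42e-06). CREB3L1, a transcription factor of collagen-secreting cells, rose there from 43.4 ± 4.88 to 131 ± 44.6 TPM (SD, n = 3; log2 fold change 1.51, adjusted p = 0.00245). MIA3, which helps export large procollagens, fell from 35.5 ± 9.12 to 10.9 ± 0.725 TPM (SD, n = 3; log2 fold change -1.59, adjusted p = 0.000716).

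Of the genes of processing and crosslinking, 5 of 9 tested were called higher and none lower in U87 (2 at an unadjusted p under 0.05, limma). In U118, 3 of 10 rose and 5 fell. The shares over all genes were 3.03% higher and 7.79% lower in U87, and 8.64% and 26.6% in U118. LOX, the lysyl oxidase that cross-links collagen, rose in U87 from 15 ± 4.25 to 65.1 ± 10.9 TPM (SD, n = 3; log2 fold change 2.07, adjusted p = 0.000498) and fell in U118 from 94.9 ± 13.3 to 29.1 ± 13.6 TPM (SD, n = 3; log2 fold change -1.75, adjusted p = 0.0016), the same pair of directions as COL1A1. TGM2, a crosslinking transglutaminase, rose in U87 from 35.1 ± 1.48 to 105 ± 2.69 TPM (SD, n = 3; log2 fold change 1.55, adjusted p = 5.78e-05) and in U118 from 19.1 ± 1.84 to 181 ± 44.4 TPM (SD, n = 3; log2 fold change 3.16, adjusted p = 8.35e-06). PCOLCE2, an enhancer of procollagen cleavage, fell in U118 from 97.2 ± 34.6 to 5.87 ± 3.38 TPM (SD, n = 3; log2 fold change -3.89, adjusted p = 4.45e-05), and ADAMTS2, a procollagen peptidase, rose from 0.695 ± 0.313 to 3.65 ± 0.117 TPM (SD, n = 3; log2 fold change 1.47, adjusted p = 0.000423). With a mean under 1 TPM in U118 control, ADAMTS2 passed the filter because U118 aggregation was high.

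Among genes of breakdown, 4 of 7 were called higher and none lower in U87 (0 at an unadjusted p under 0.05, limma), and 1 rose and 3 fell in U118. The shares over all genes were 3.03% higher and 7.79% lower in U87, and 8.64% and 26.6% in U118. MMP14, a membrane collagenase, rose in U87 from 219 ± 19 to 587 ± 34.2 TPM (SD, n = 3; log2 fold change 1.42, adjusted p = 8.53e-05), and FAP, a membrane protease of activated fibroblasts, from 8.8 ± 4.09 to 31.9 ± 2.91 TPM (SD, n = 3; log2 fold change 1.83, adjusted p = 0.00331). In U118, MMP1, the interstitial collagenase, fell from 771 ± 77.5 to 2.66 ± 2.08 TPM (SD, n = 3; log2 fold change -7.86, adjusted p = 6.87e-07), and CTSK, the collagen-degrading cathepsin, rose from 1.74 ± 0.14 to 265 ± 117 TPM (SD, n = 3; log2 fold change 6.52, adjusted p = 8.66e-07). MMP16 fell from 11.7 ± 0.455 to 2.45 ± 1.17 TPM (SD, n = 3; log2 fold change -1.93, adjusted p = 0.000516).

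Of fibril partners, 6 of 11 tested were called higher and none lower in U87 (0 at an unadjusted p under 0.05, limma), where 3.03% of all genes were higher and 7.79% lower. In U118, 1 of 14 rose and 10 fell, beside 8.64% of all genes higher and 26.6% lower. FN1, fibronectin, rose in U87 from 73.4 ± 4.87 to 889 ± 95.4 TPM (SD, n = 3; log2 fold change 3.58, adjusted p = 8.59e-06). POSTN, periostin, rose in U87 from 0.393 ± 0.454 to 5.56 ± 0.51 TPM (SD, n = 3; log2 fold change 2.28, adjusted p = 0.000551) and fell in U118 from 51.3 ± 15.2 to 0.0516 ± 0.0894 TPM (SD, n = 3; log2 fold change -5.59, adjusted p = 1.11e-06). MATN2, a matrix adaptor, fell in U118 from 48.9 ± 6.34 to 0.0811 ± 0.0848 TPM (SD, n = 3; log2 fold change -5.52, adjusted p = 5.18e-07), and FBLN1, fibulin, rose there from 0.805 ± 0.411 to 6.38 ± 0.736 TPM (SD, n = 3; log2 fold change 2.05, adjusted p = 0.000146). POSTN, MATN2 and FBLN1 each had a mean under 1 TPM in the lower group, so they passed the filter because the other group was high. Of collagen receptors, none of 8 was called in U87 (1 lower at an unadjusted p under 0.05, limma) and 3 of 9 were lower in U118, near the 26.6% of all genes, with none higher (1 at an unadjusted p under 0.05), the 3 including the collagen-binding integrin subunits ITGA10 and ITGA11. ITGA10 fell from 9.62 ± 1.84 to 1.41 ± 1.22 TPM (SD, n = 3; log2 fold change -2.24, adjusted p = 0.000782), and ITGA11 fell from 11.5 ± 1.47 to 3.52 ± 1.96 TPM (SD, n = 3; log2 fold change -1.54, adjusted p = 0.00348).

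Of regulators of collagen genes, 1 of 20 was called higher and 1 lower in U87, and 9 were lower and none higher in U118 (4 at an unadjusted p under 0.05, limma). All genes had 3.03% higher and 7.79% lower in U87 and 26.6% lower in U118. TGFB3, a growth factor that induces matrix genes, rose in U87 from 3.92 ± 0.546 to 16 ± 0.93 TPM (SD, n = 3; log2 fold change 1.79, adjusted p = 0.000204). NFYB, a subunit of the factor that binds CCAAT, fell in U87 from 15.4 ± 5.89 to 5.61 ± 1.64 TPM (SD, n = 3; log2 fold change -1.28, adjusted p = 0.0142), and its partner NFYA fell in U118 from 33.3 ± 3.41 to 9.35 ± 4.02 TPM (SD, n = 3; log2 fold change -1.79, adjusted p = 0.000998). SKI, a repressor of TGF-beta signalling, fell in U118 from 56.4 ± 3.15 to 13.4 ± 0.89 TPM (SD, n = 3; log2 fold change -1.99, adjusted p = 5.6e-05).

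Of the marker lists of other cell types, the sum of the fibroblast list was higher where summed collagen was higher in both lines. The summed TPM of 10 fibroblast markers was 447 to 641 in U118 control and 67.0 to 117.8 in U118 aggregation, and 5.61 to 16.5 in U87 control and 45.5 to 51.1 in U87 aggregation. Of these markers, DCN, LUM, POSTN and FBLN1 are also on the list of fibril partners above, and FAP on that of breakdown. The fibroblast sum is thus not independent of those lists. DCN and FBLN1 were listed at 0 in U87 control, and FBLN1 in U87 aggregation too. Only FAP and LUM reached 1 TPM in any U87 control library, and only DCN, FAP, LUM, MFAP5 and POSTN in U87 aggregation. FAP alone went from 8.8 ± 4.09 to 31.9 ± 2.91 TPM in U87 (SD, n = 3). FBLN1 went the other way in U118, from 0.805 ± 0.411 to 6.38 ± 0.736 TPM. The fibroblast sums thus show some of these genes and not the list as a whole. The 8 pericyte and smooth muscle markers summed to 335 to 353 TPM in U87 control, 379 to 406 in U87 aggregation, 104 to 125 in U118 control and 169 to 208 in U118 aggregation. Of 8 glial and neural stem markers, AQP4 was listed at 0 in all libraries, 3 were at 1 TPM or more in some U87 library, and the list summed to 9.74 to 35.5 TPM across all libraries. In U118, where summed collagen was lower in aggregation cells, the pericyte list was higher, and so were the leukocyte list (1.89 to 2.75 TPM in control and 10.5 to 16.3 in aggregation) and the epithelial list (1.60 to 2.67 and 11.1 to 19.9 TPM), all without overlap. Of the 6 leukocyte markers only CSF1R was at 1 TPM or more in any U118 library. Of the 6 epithelial markers only KRT8 was in U118 control, and KRT8 and KRT18 in U118 aggregation. These sums thus show few genes and not the lists as a whole. In U87 the leukocyte list was at 5.86 to 7.24 and 6.25 to 6.97 TPM and the epithelial list at 7.85 to 9.43 and 10.7 to 12.4 TPM. Endothelial markers summed to at most 4.74 TPM. The part of these cell types in the collagen values was not tested.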

How the data were processed

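mRNA was sequenced from 12 libraries of U87 and U118 cells. The authors deposited TPM values per gene, 1 table per line, with 58174 Ensembl IDs each. The submitters' processing notes name FastQC 0.11.2, Trimmomatic 0.36, HISAT2 2.0, bedtools 2.26.0 and GRCh38; the tool that gave the TPM values and its strand setting are not given in the sources used here. Read counts cannot be recovered from TPM, so a count test was not used.

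Coordinates, gene types and transcript lengths came from GENCODE 29, and symbols from a separate list of gene names by Ensembl identifier. Genes at 1 TPM or more in at least 3 libraries of a fit were tested on log2(TPM + 1) with limma 3.58.1 (R 4.3.3, trended eBayes, Benjamini-Hochberg adjustment), 1 fit per line (6 libraries) and 1 over 12. Sums and ratios were compared with exact two-sided permutation tests (scipy 1.17.1). The fits were tested on simulated data. Alternatives covered pseudocounts of 0.1 and 0.01, filters, scaling, mitochondrial genes, a replicate block and leaving out each library; removal of the length and GC trend was added after seeing the data.

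Collagens called in either line or the interaction, or at a mean of 10 TPM in a group, were described with every library's value, and from each pathway list at most the 2 largest called rises and falls per line. The levels that set which collagens were described, and the lists, were chosen with earlier results of these data known. Promoter sequences came from RefSeq (GRCh38.p14), and no protein sequences were analysed here.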

Additional observations from a re-analysis of the deposited data

Results flagged for a closer look

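For 16 collagen genes the change from control to aggregation cells differed between the lines in the limma interaction test (adjusted p under 0.05, difference of at least 1). The differences below are the U118 minus the U87 log2 fold change. Lower changes in U118 were found for COL14A1 (-4.65), COL4A1 (-3.25), COL5A2 (-3.11), COL6A1 (-3.06), COL4A2 (-2.70), COL1A1 (-2.69), COL1A2 (-2.67), COL6A3 (-2.47), COL6A2 (-2.26), COL5A1 (-2.01), COL12A1 (-1.71) and COL8A1 (-1.09). Higher changes in U118 were found for COL13A1 (3.36), COL4A6 (2.74), COL27A1 (1.28) and COL16A1 (1.17). COL4A1, COL14A1 and COL13A1 were under 1 TPM in all 6 U87 libraries, so their differences rest on U118. What lies behind these differences was not tested.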

How the results depend on the processing

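Of the 52 called fold changes of collagens, none changed direction in any alternative run that still tested the gene. Over these runs the call was kept 875 times and lost 54 times. Runs in which the gene no longer passed the filter are not counted. Among them are those of COL4A1, COL14A1 and COL13A1 without any 1 library of the group that let them in. In U87 (5 higher, 1 lower), 8 were higher with no fold threshold, with median-ratio scaling or without mitochondrial genes, and 3 were lower with no fold threshold or a pseudocount of 0.1 or 0.01. With a mean of at least 10 TPM 0 were lower in U87 (1 of 11 at an unadjusted p under 0.05, limma). In U118 (3 higher, 10 lower), 1 was higher with no filter or a mean of at least 10 TPM, and 6 were lower with median-ratio scaling. In the interaction (4 higher, 12 lower), 2 were higher with no filter and 1 with a mean of at least 10 TPM. Between control cells (7 higher, 2 lower), 11 were higher with no fold threshold, and 3 higher and 0 lower (1 of 10 at an unadjusted p under 0.05, limma) with a mean of at least 10 TPM. Between aggregation cells (2 higher, 6 lower), 0 were higher with a mean of at least 10 TPM (1 of 10 unadjusted) and 1 with the length and GC trend removed. The log2 ratio of total collagen in U87 (1.24) was 1.499 with median-ratio scaling, 1.38 without mitochondrial genes and 1.10 without COL6A1, and in U118 (-1.16) it was -0.65 with median-ratio scaling. The U87 COL4A5 to COL4A6 ratio (log2 change 1.11) was 0.67 with a pseudocount of 1. The filter on a mean of 10 TPM tests fewer genes. What caused the other changes was not tested. Shares of all genes called were computed only for the main fit and median-ratio scaling, so the other counts have no share beside them.

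Leaving out each library in turn gave 4 to 6 higher and 1 to 2 lower in U87, 0 to 3 and 8 to 10 in U118, 1 to 4 and 9 to 12 in the interaction, 5 to 7 and 2 to 2 between control cells, and 0 to 2 and 4 to 6 between aggregation cells. The log2 ratio of the total lay between 1.20 and 1.30 for U87 and between -1.503 and -0.998 for U118. Without U118 aggregation replicate 1 the U118 and aggregation-cell comparisons had 0 higher (2 of 17 and 2 of 18 at an unadjusted p under 0.05, limma).

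Replicate numbers are shared by the groups, but nothing says that they pair libraries. Deviations of same-numbered libraries correlated at 0.011, -0.067 and -0.040 in U87 and 0.14, 0.051 and 0.095 in U118, where every library correlated best with its own number. With the replicate block there were 5 higher and 1 lower in U87, 3 and 10 in U118, 4 and 11 in the interaction (COL8A1, adjusted p = 0.0639, was lost), 7 and 2 between control cells and 2 and 6 between aggregation cells. TPM keeps no depth, so the counting error of low collagens is unknown.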

Other observations

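Some collagens too low to be tested still had values that did not overlap between groups. COL15A1, a multiplexin of vessel basement membranes, was at 0.052, 0.12 and 0.203 TPM in U87 control and 0.739, 0.873 and 0.534 TPM in U87 aggregation. In U118 it was at 0.14, 0.0628 and 0.094 TPM in control and 1.11, 0.559 and 0.442 TPM in aggregation, so it was higher in aggregation cells of both lines. COL5A3, the third type V chain, was at 0, 0 and 0 TPM in U87 control and 0.151, 0.0783 and 0.147 TPM in U87 aggregation, and at 0.18, 0.108 and 0.0149 and 0.348, 0.319 and 0.432 TPM in the U118 groups. COL11A1, a fibrillar chain of cartilage, was at 0.416, 0.166 and 0.215 TPM in U118 control and listed at 0, 0 and 0 TPM in U118 aggregation. These genes were picked after their values were seen, and no test was run on them.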
